A study of Homo sapiens with 38 samples.

Results

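Divergent protein-coding promoters are stretches of DNA from which a pair of protein-coding genes is read in opposite directions. They were taken from GENCODE 44 on hg38 as every pair in which a minus-strand gene started 0 to 1000 bp to the left of a plus-strand gene. A start was the 5′ end of the gene record, and each region ran from the minus-strand start to the plus-strand start with 500 bp added on either side. There were 887 such regions, which held 1710 of 20033 protein-coding genes (8.54%). The comparison was with 16555 single promoters, which were protein-coding starts with no other protein-coding start within 1000 bp and 500 bp added on either side. The starts of a pair lay 1 to 995 bp apart, with a median of 132 bp and quartiles of 69.0 and 248 bp, and 717 pairs (80.8%) lay within 300 bp. A gene with more than 1 partner entered more than 1 region, so that 63 genes were shared, and the 887 regions merged into 824.

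CUT&RUN, in which an antibody steers a nuclease to a chromatin protein and the released DNA is sequenced, was done on U-2 OS osteosarcoma cells. Every line carried V5-Halo-SP1 at the endogenous SP1 locus, and by the study's methods the tagged lines came from 1 selected knock-in clone. The parental line (CTRL) had no further construct. The other lines expressed a FLAG-tagged construct from the AAVS1 locus under doxycycline (1 µg/ml, for 36 h before the cells were sorted and 36 h after). Doxycycline (1 µg/ml, 36 h) is listed for the CTRL samples as well. The Sp1 constructs were Sp1 WT, Sp1 DBD (which lacks the N-terminal disordered region and keeps the DNA-binding domain, DBD) and Sp1 DBD Mutant. The chimeras were EWS IDR-Sp1 DBD, Sp1 IDR-CTCF DBD and Sp1 IDR-LacI, where IDR stands for intrinsically disordered region, and the remaining constructs were CTCF DBD, LacI and SNAPf-NLS. Mouse anti-FLAG was used in all 10 lines and rabbit anti-FLAG in CTRL. Rabbit and mouse anti-V5, which read the endogenous protein, were used in CTRL cells and in the lines with Sp1 WT, Sp1 IDR-CTCF DBD and Sp1 IDR-LacI. The 38 samples were 2 replicates of each of 19 combinations, and the authors made 1 peak list of each combination. A list therefore has no replicates of its own, its read depth is unknown here, and intervals below are 95% intervals of counting error over regions, not over cultures. The lists held 22 to 5151 peaks, and peak lists hold no expression values with which the identity of the cells could be checked. Peaks were called against merged control samples, so lists that share a control are not independent of each other.

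Sp1 is a zinc finger transcription factor that binds GC boxes, short G- and C-rich sequences common in promoters. Divergent promoters are usually CpG islands that lack a TATA box, and many serve genes of housekeeping functions such as DNA repair, translation and mitochondrial metabolism. Their short intergenic stretch belongs to the upstream side of both genes, so a factor bound there lies close to both starts.

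The stretch between the starts, where no base belongs to either gene record, is shown for 8 pairs that carry the contrasts described below. All are hg38, 5′ to 3′ on the plus strand, and capitals mark GC boxes (GGGCGG or its reverse complement CCGCCC). SF3B6-FAM228B (chr2:24076374-24076525), POMT2-GSTZ1 (chr14:77320884-77320995) and ANAPC5-RNF34 (chr12:121399897-121400082) are shown because many lists had a peak there. PPAT-PAICS (chr4:56435616-56435740) is shown because it had peaks in other Sp1 lists without one in the Sp1 WT list.
SF3B6-FAM228B: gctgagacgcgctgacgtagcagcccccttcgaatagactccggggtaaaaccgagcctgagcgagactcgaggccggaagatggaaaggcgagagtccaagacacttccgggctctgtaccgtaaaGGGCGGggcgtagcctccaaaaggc
POMT2-GSTZ1: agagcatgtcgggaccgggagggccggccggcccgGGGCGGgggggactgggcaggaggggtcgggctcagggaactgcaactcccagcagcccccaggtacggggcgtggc
ANAPC5-RNF34: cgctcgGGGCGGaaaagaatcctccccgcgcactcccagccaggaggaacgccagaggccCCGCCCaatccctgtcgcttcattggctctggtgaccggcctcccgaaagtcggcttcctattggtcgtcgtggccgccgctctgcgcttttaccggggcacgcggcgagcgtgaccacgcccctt
PPAT-PAICS: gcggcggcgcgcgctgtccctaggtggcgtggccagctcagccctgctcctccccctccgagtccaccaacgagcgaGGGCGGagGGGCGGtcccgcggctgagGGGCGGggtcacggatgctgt

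OSGEP-APEX1 (chr14:20455090-20455190) and SARS2-MRPS12 (chr19:38930764-38930943) are shown as occupied pairs with no GC box and 1 GC box in the whole region. RRP12-PGAM1 (chr10:97426077-97426190) had 18 GC boxes in the region and no peak in any list. RPL36AL-MGAT2 (chr14:49620627-49620798) had a peak of the CTCF DBD alone.
OSGEP-APEX1: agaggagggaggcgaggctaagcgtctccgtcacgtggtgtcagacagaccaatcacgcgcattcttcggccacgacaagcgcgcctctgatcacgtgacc
SARS2-MRPS12: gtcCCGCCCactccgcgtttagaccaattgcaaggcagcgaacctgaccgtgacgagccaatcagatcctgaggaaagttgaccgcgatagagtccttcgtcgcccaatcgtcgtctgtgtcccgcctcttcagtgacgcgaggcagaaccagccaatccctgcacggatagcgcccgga
RRP12-PGAM1: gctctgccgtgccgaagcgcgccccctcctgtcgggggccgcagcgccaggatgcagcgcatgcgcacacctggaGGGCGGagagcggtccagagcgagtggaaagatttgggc
RPL36AL-MGAT2: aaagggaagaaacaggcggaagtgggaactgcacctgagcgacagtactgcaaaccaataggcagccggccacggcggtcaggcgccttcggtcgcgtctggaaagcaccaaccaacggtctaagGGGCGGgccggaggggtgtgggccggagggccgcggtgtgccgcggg
The G and C content of these stretches ran from 60% at SARS2-MRPS12 to 76.8% at POMT2-GSTZ1. The number of GC boxes between the starts was 0 at OSGEP-APEX1, 1 at SF3B6-FAM228B, POMT2-GSTZ1, SARS2-MRPS12, RRP12-PGAM1 and RPL36AL-MGAT2, 2 at ANAPC5-RNF34 and 3 at PPAT-PAICS.

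Sp1 WT peaks lay at a larger share of divergent than of single promoters. A peak of the Sp1 WT anti-FLAG list overlapped 329 of 887 divergent regions, which was 37.1% (Wilson interval 34.0 to 40.3). At single promoters the share was 2697 of 16555, or 16.3% (15.7 to 16.9), and over all 20033 protein-coding starts it was 19.4%. The difference of 20.8 percentage points had a Newcombe interval of 17.6 to 24.1. The 329 regions rested on 308 peaks, 5.98% of the list, and 42 of them shared their peak with another divergent region.

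The constructs in which the Sp1 N-terminal disordered region was removed (Sp1 DBD) or replaced (EWS IDR-Sp1 DBD) had fewer peaks than Sp1 WT. The Sp1 DBD list occupied 224 divergent regions (25.3%, 22.5 to 28.2) against 11.2% of single promoters, with 13.1% of all starts. The EWS IDR-Sp1 DBD list occupied 147 (16.6%, 14.3 to 19.2) against 7.47%, with 8.63% of all starts. The ratio of the share at divergent to that at single promoters was 2.28 for Sp1 WT, 2.26 for Sp1 DBD and 2.22 for EWS IDR-Sp1 DBD. These ratios moved with the length of the list: with each list cut to its 1332 highest ranked peaks they were 3.14, 2.52 and 2.31.

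Endogenous Sp1, read with anti-V5, had fewer peaks than the Sp1 WT anti-FLAG list, and again a larger share at divergent promoters. In CTRL cells the rabbit antibody gave peaks at 186 divergent regions (21.0%, 18.4 to 23.8) against 6.48% of single promoters, a difference of 14.5 points (11.9 to 17.3) and a ratio of 3.24. The mouse antibody gave 174 (19.6%, 17.1 to 22.4) against 6.24%, a difference of 13.4 points (10.9 to 16.1) and a ratio of 3.14. The shares of all starts were 8.55% and 8.06%. Anti-V5 in the lines with a construct gave a difference in the same direction. In the Sp1 WT line the rabbit list occupied 164 divergent regions (18.5%) and the mouse list 107 (12.1%), with 6.94% and 5.36% of all starts. In the Sp1 IDR-LacI line the lists occupied 189 (21.3%) and 144 (16.2%), with 8.91% and 7.01% of all starts. In the Sp1 IDR-CTCF DBD line they occupied 197 (22.2%) and 123 (13.9%), with 8.98% and 5.79% of all starts. Across the 8 anti-V5 lists the ratio to single promoters ran from 2.92 to 3.53. With all lists cut to 1332 peaks the range was 2.92 to 3.68, with 3.54 and 3.39 for the rabbit and mouse lists of CTRL, and the Sp1 WT anti-FLAG ratio of 3.14 lay within it.

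Constructs with the DNA-binding domain of CTCF, the insulator and loop anchor protein, had few peaks at divergent promoters. The CTCF DBD list occupied 27 (3.04%, 2.10 to 4.39) against 1.11% of single promoters, a difference of 1.93 points (0.973 to 3.29), with 1.34% of all starts. The Sp1 IDR-CTCF DBD anti-FLAG list occupied 11 (1.24%, 0.694 to 2.21) against 0.332%, a difference of 0.908 points (0.353 to 1.88), with 0.454% of all starts. The 27 and 11 regions rested on 23 and 8 peaks, since overlapping regions can share a peak. The ratios to single promoters were 2.74 and 3.73, and with overlapping regions merged 2.51 and 2.92. A larger share at divergent promoters was thus also found in lists of constructs without the Sp1 DNA-binding domain. The 6 remaining lists, of Sp1 DBD Mutant, LacI, Sp1 IDR-LacI and SNAPf-NLS with anti-FLAG and of CTRL with mouse and rabbit anti-FLAG, had a peak at 0 of 887 divergent regions and at 0% of all starts. These lists held 918 peaks in all, so their 0 is a statement about the listed peaks.

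**Figure D1:**
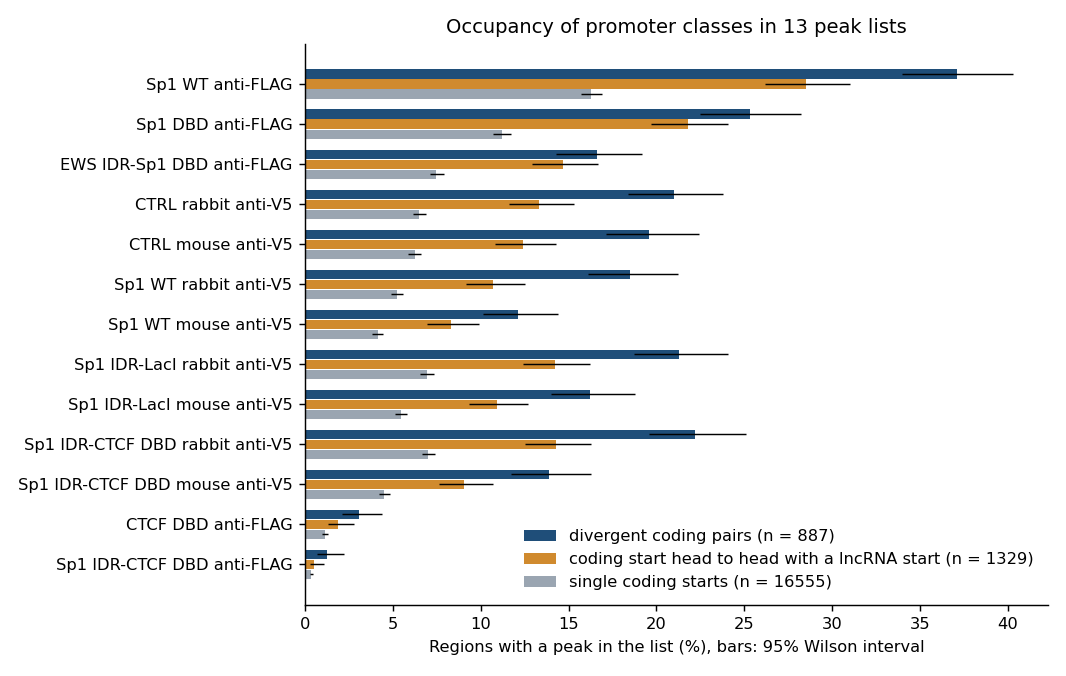
Percent with a peak among 887 divergent regions, 1329 single starts head to head with a long noncoding RNA start, and all 16555 single promoters. The 13 lists with a peak at a divergent region are shown, and error bars are 95% Wilson intervals over regions. The divergent share is above the single share in every list shown, from 37.1% against 16.3% for Sp1 WT to 1.24% against 0.332% for Sp1 IDR-CTCF DBD anti-FLAG.

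Other arrangements of gene starts lay between these classes or beside the divergent regions. Of the 16555 single promoters, 1329 had a long noncoding RNA (lncRNA) start head to head with the coding start. Their windows were 500 bp to each side of the coding start, shorter than the divergent regions. A Sp1 WT peak was in 28.5% (26.2 to 31) of them, 8.57 points (4.59 to 12.6) below the coding pairs. In windows of that length, 37.2% of the starts in coding pairs had one. For CTRL rabbit anti-V5 the coding pairs were 7.65 points (4.45 to 10.9) above the coding starts with a lncRNA partner. For Sp1 DBD the difference of 3.43 points had an interval that included 0 (-0.151 to 7.09). Of 509 head-to-head coding pairs whose gene records overlapped, which the rule left out, 38.3% (34.2 to 42.6) had a Sp1 WT peak. Divergent regions differed from these by -1.22 points (-6.53 to 4.02), so a difference of several points in either direction was within counting error. Single promoters with no noncoding start nearby had a Sp1 WT share of 14.2%.

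Occupancy rose with the distance between the starts up to 500 bp and was not higher beyond it. The Sp1 WT share was 20.5% (14.8 to 27.8) of 146 regions with 0 to 50 bp between the starts, 31.6% of 196 up to 100 bp and 33.6% of 253 up to 200 bp. It was 50.0% (41.3 to 58.7) of 122 regions over 200 and up to 300 bp, 57.4% (47.4 to 67.0) of 94 up to 500 bp and 48.7% (37.8 to 59.7) of 76 up to 1000 bp. Regions over 300 and up to 500 bp exceeded those up to 50 bp by 36.9 points (24.5 to 48.0), while the intervals of the widest bins overlapped each other. Endogenous Sp1 had the same order in the values. The CTRL rabbit anti-V5 share was 6.85%, 15.3%, 17.8%, 33.6%, 42.6% and 26.3% in these 6 bins from the closest to the widest, with 35.7 points (24.8 to 46.3) between the lowest and the highest bin. For Sp1 DBD the shares up to 50 bp and over 300 and up to 500 bp were 17.8% and 42.6%, and for EWS IDR-Sp1 DBD 8.90% and 34.0%. Wider pairs had longer regions, so the shares were also taken in windows of 500 bp to each side of the midpoint, equal in length for every pair. In each of the 6 bins the Sp1 WT share in these windows equalled the share in the regions. The median Sp1 WT peak was 1025 bp wide, so cutting the regions to this length could lose few peaks. The density of GC boxes in the regions also differed between the bins, with medians of 2.88, 2.79, 2.71, 3.23, 3.54 and 3.24 per kb in order of distance. In the windows of equal length the median number of GC boxes was 3, 3, 3, 3, 4 and 3. The part of GC boxes in the result was not tested.

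**Figure D2:**
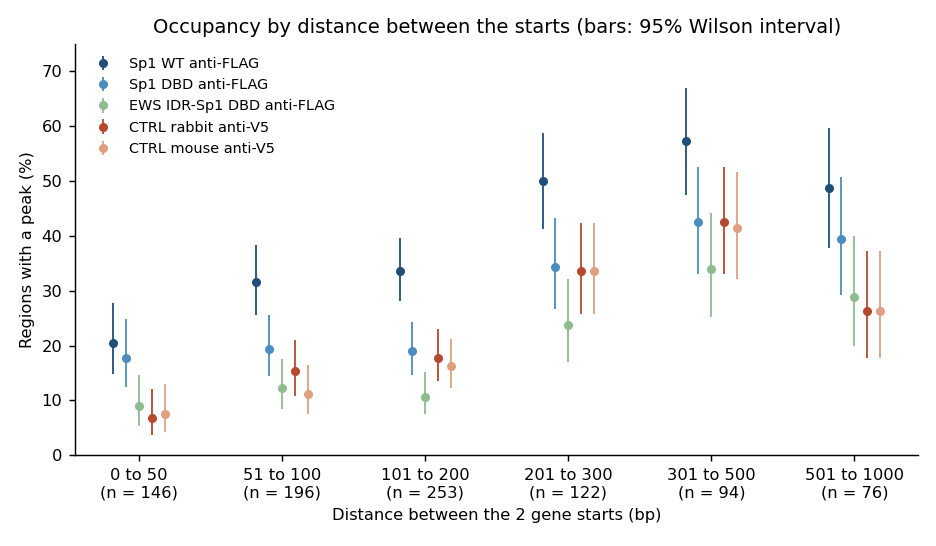
Percent of divergent regions with a peak by distance between the starts (bp, 6 bins of 76 to 253 regions), for Sp1 WT, Sp1 DBD, EWS IDR-Sp1 DBD and the CTRL anti-V5 lists; error bars are 95% Wilson intervals. The Sp1 WT values go from 20.5% in the closest bin to 57.4% in the bin over 300 and up to 500 bp.

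Peaks were broad compared with the distance between starts, and their summits, the points of highest signal, lay near the middle. The Sp1 WT peak covered both starts in 303 of 329 occupied regions (92.1%, 88.7 to 94.6). In the 313 regions with a summit inside, 161 summits (51.4%, 45.9 to 56.9) lay between the starts, a stretch that made up 18.1% of the length of these regions. For CTRL rabbit anti-V5 it was 122 of 176 (69.3%, 62.2 to 75.7), with 19.6% of the length, and for CTRL mouse anti-V5 108 of 166 (65.1%) with 19.9%. Sp1 DBD had 104 of 212 (49.1%) and EWS IDR-Sp1 DBD 64 of 137 (46.7%). The median distance of a summit from the midpoint was 100 bp for Sp1 WT, 118 bp for Sp1 DBD, 146 bp for EWS IDR-Sp1 DBD, 62 bp for CTRL rabbit anti-V5 and 73.2 bp for CTRL mouse anti-V5. Signed toward the plus-strand gene, the median offsets were between -8.50 and 8.50 bp in these 5 lists. Which gene of a pair lies on the plus strand is arbitrary, so these medians cannot show whether summits leaned to either gene. At single promoters the median summit lay 80 bp upstream of the start for Sp1 WT, with 65.6% of 2289 summits upstream, and 111 bp upstream for CTRL rabbit anti-V5.

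The share of summits between the starts rose with the distance between them up to 500 bp and was not higher beyond. For Sp1 WT it was 8% (2 of 25) in the closest bin, 17.5%, 38.6% and 69.5% in the next ones, 88.9% (48 of 54) over 300 and up to 500 bp, and 80% (28 of 35) beyond. The stretch made up 3.09%, 6.89%, 12.8%, 19.8%, 27.7% and 42.1% of the region in these bins. No divergent region had more than 1 Sp1 WT peak, and the median peak was 1025 bp wide against 987 bp at single promoters. Ranked by the authors' −log10 p within the Sp1 WT list (100 is the highest), peaks at divergent promoters had a median percentile of 64.6 (quartiles 35.7 and 83.2) and those at single promoters 51.7 (26.5 and 75.9). For CTRL rabbit anti-V5 these medians were 58.6 and 50.3, and for Sp1 DBD 55.3 and 51.6.

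**Figure D3:**
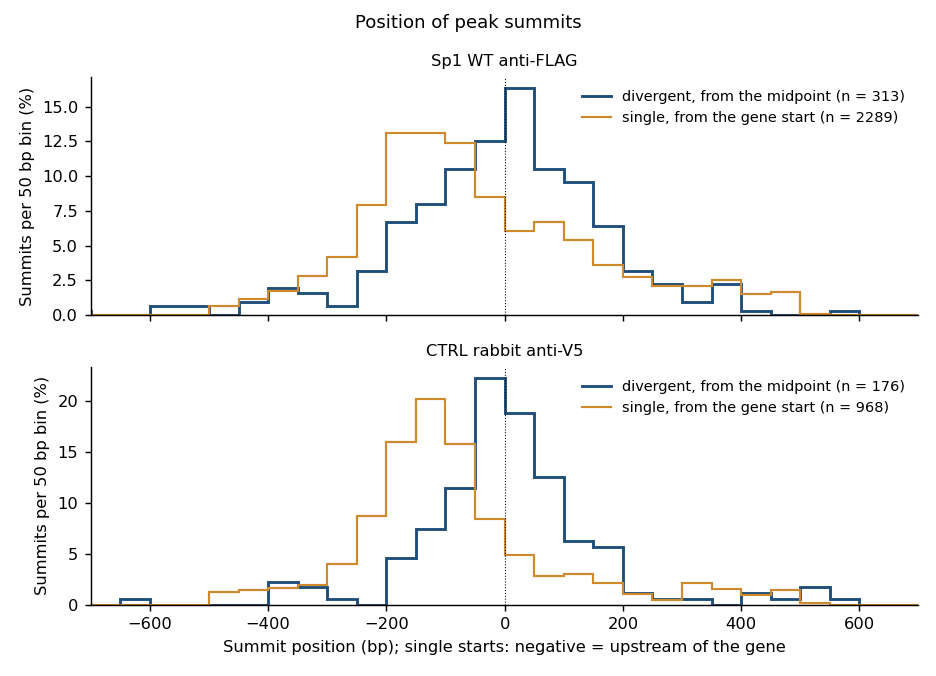
Summits by distance from the midpoint of a divergent region (bp, 50-bp bins, negative toward the minus-strand gene) and from the start of a single promoter (bp, negative upstream). Summits at divergent regions gather around 0, at a median distance of 100 bp for Sp1 WT and 62 bp for CTRL rabbit anti-V5. The signed medians there are 5.50 and -4.50 bp, and at single promoters the median is -80 bp for Sp1 WT. The sign follows the genome strand at divergent regions and the gene at single promoters, so the signed medians are not comparable.

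Divergent promoters were richer in CpG and in GC boxes than single promoters. In equal windows of 500 bp to each side of a start, the median ratio of observed to expected CpG was 0.780 at divergent and 0.652 at single starts. The median number of GC boxes was 3 against 2. At starts with a Sp1 WT peak the CpG medians were 0.781 for divergent and 0.782 for single promoters, and the order of the GC boxes turned round, with medians of 4 and 5. Letters were searched on both strands with overlapping matches counted, and GGGGCGGGG holds GGGCGG within it, so these counts overlap. Both starts of a divergent pair were counted, and their windows largely overlap. Intervals for divergent starts, here and below, are therefore too narrow. GGGCGG was in 90.8% of divergent and 68.6% of single start windows (72.0% of all protein-coding starts), a difference of 22.2 points (20.6 to 23.7). GGGGCGGGG was in 38.2% and 29.8% (30.9% of all), and among starts with a Sp1 WT peak it was in 50.5% of divergent and 58.6% of single windows.

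Over all starts, most motifs of other factors differed between the classes as well, the ETS core most of all. CCGGAAG, the core bound by ETS factors such as GABP, was in 39.2% of divergent and 17.9% of single windows (20.8% of all), a difference of 21.3 points (19 to 23.7). GCATGCG, part of the NRF1 motif, was in 13.6% and 7.49% (8.27% of all). AAGATGGCG, the YY1 core, was in 6.90% and 3.35% (3.90% of all). CCAAT, bound by NF-Y, was in 66.7% and 65.6% (65.7% of all), a difference of 1.08 points (-1.30 to 3.39). TATAAA, the TATA box, was in 16.4% of divergent against 28.8% of single windows (26.9% of all), lower by 12.4 points with an interval of -14.2 to -10.4. Among starts with a Sp1 WT peak most of these shares lay closer together. GCATGCG was in 11.2% of divergent and 11.1% of single windows, AAGATGGCG in 7.08% and 5.52%, and TATAAA in 14.2% and 16.6%. CCGGAAG was in 39.3% and 28.0% there. For CCAAT the shares lay further apart, at 73.6% and 66.4%.

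Among divergent starts, GC boxes and CCAAT were more frequent with a Sp1 WT peak than without, and for the ETS core no difference was seen. Of 636 divergent starts with a peak, 50.5% held GGGGCGGGG, against 30.9% of 1074 without, a difference of 19.6 points (14.8 to 24.3). For CCAAT the shares were 73.6% and 62.7%, a difference of 10.9 points (6.37 to 15.3). For CCGGAAG they were 39.3% and 39.2%, a difference of 0.109 points (-4.64 to 4.91). GCATGCG was less frequent with a peak, at 11.2% against 15.1%, a difference of -3.92 points (-7.09 to -0.563). Within 100 bp of the Sp1 WT summit a GC box was present in 73.9% (68.9 to 78.3) of occupied divergent regions and 76.4% of single promoters. CCAAT was present there in 40.1% (35.0 to 45.5) and 31.9%.

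GC boxes were concentrated between the starts. Their density was 7.06 per kb between the starts of 885 divergent regions, 3.05 per kb in the 500 bp on either side, and 6.01 per kb in the 132 bp upstream of single starts. CCAAT had 3.57, 0.974 and 2.26 per kb in these stretches, and CCGGAAG 0.931, 0.390 and 0.471. Regions with a Sp1 WT peak had 8.77 GC boxes per kb between the starts and regions without had 5.63. Upstream of single starts the values were 11.2 with a peak and 4.99 without. These windows were unlike, with 132 bp at every single start and stretches of varied length in pairs. Matches were pooled, over 80949 bases between the starts of the 328 occupied regions, so wider pairs counted more. Whether the density differs between the classes in windows of equal length next to the start was not tested. A GC box lay between the starts in 251 of 328 occupied regions (76.5%) and in 266 of 557 others (47.8%). The sequences above show the spread, with 1 box between the starts at RRP12-PGAM1, which had no peak, and none at OSGEP-APEX1, which had one.

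With the same number of GC boxes, divergent starts still had a larger Sp1 WT share than single starts. Starts with 0 GC boxes within 500 bp had a peak in 15.3% of 157 divergent and 1.96% of 5197 single cases, a difference of 13.3 points (8.51 to 19.8). With 1 or 2 boxes the shares were 24.9% and 11.3%, with 3 to 5 boxes 43.2% and 26.1%, with 6 to 9 boxes 52.0% and 32.3%, and with 10 or more 58.9% and 40.4%. By CpG ratio, the shares were 10.2% (6 of 59) and 1.68% below 0.4, 34.6% and 10.5% from 0.4 to 0.6, 39.2% and 25.8% from 0.6 to 0.8, and 37.6% and 26.9% from 0.8. Weighting single starts to the GC boxes of the divergent ones brought their share to 21.0%, against 37.2% of divergent starts, and weighting to CpG brought it to 24.5%. The remaining differences were 16.1 points (13.8 to 18.5) and 12.7 points (10.3 to 15.1). Both starts of a pair were counted here, although their windows largely overlap and often hold the same peak. The intervals over divergent starts are therefore too narrow. A divergent start also has a second start within its window, and the activity of the genes was not measured in these lists. Their part in the difference was not tested.

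**Figure D4:**
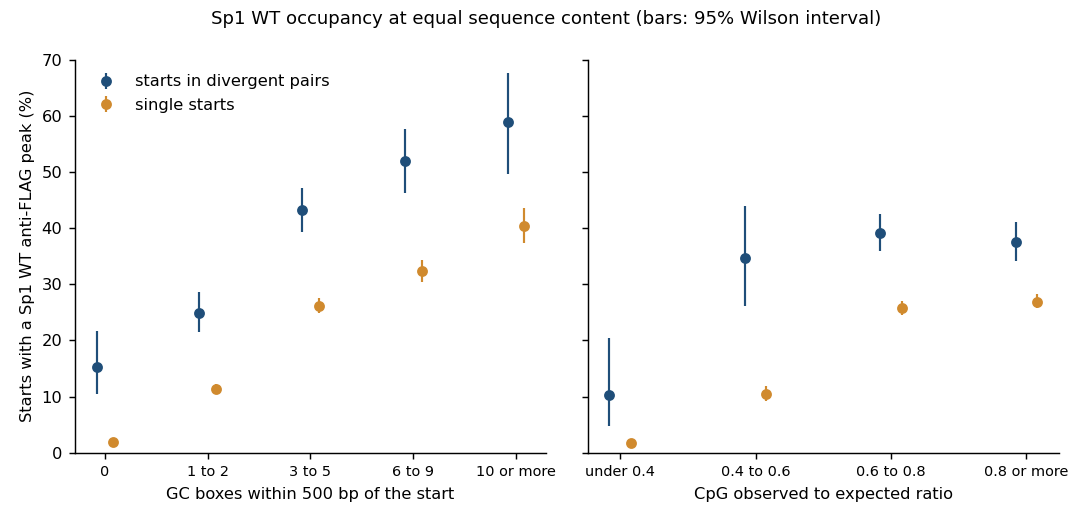
Percent of divergent and single start windows with a Sp1 WT peak. Classes are by number of GC boxes and by ratio of observed to expected CpG in 500 bp to each side. Error bars are 95% Wilson intervals over starts, and the starts of a pair are not independent. The divergent value is the higher in every class, from 15.3% against 1.96% with 0 GC boxes to 58.9% against 40.4% with 10 or more.

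Lists differed in how far they overlapped at divergent promoters. Of the 11 lists that read Sp1 or its DNA-binding domain, 0 had a peak at 495 divergent regions (55.8%, against 79.6% of single promoters), and all 11 had one at 41 (4.62% against 1.2%). Exactly 1 of the 11 lists had a peak at 83 regions (9.36% against 6.52%). The median density of GC boxes was 1.94 per kb in the 495 regions, 3.85 with 1 to 3 lists, 3.79 with 4 to 7, 4.84 with 8 to 10 and 5.69 with all 11. A GC box was missing from 53 of the 495 (10.7%) and from 0 of the 41. Among the 3 anti-FLAG lists with the Sp1 DNA-binding domain, 108 regions were in all 3 (12.2%, against 4.98% of single promoters). Sp1 WT alone had 129 (14.5% against 6.74%), Sp1 WT and Sp1 DBD 75 (8.46% against 3.71%), and Sp1 DBD alone 23 (2.59% against 1.50%).

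Promoters with a Sp1 WT peak more often had an endogenous Sp1 peak in the divergent than in the single class. For a Sp1 DBD peak this was not shown. Of 329 divergent regions with a Sp1 WT peak, 157 (47.7%) also had a CTRL rabbit anti-V5 peak, against 32.3% of single promoters with a Sp1 WT peak, a difference of 15.5 points (9.83 to 21.1). With CTRL mouse anti-V5 it was 45.0% against 31.6%, a difference of 13.4 points (7.85 to 19.1). With Sp1 DBD it was 55.6% against 53.3% (difference 2.3, -3.41 to 7.90), and with EWS IDR-Sp1 DBD 38.0% against 35.9% (difference 2.14, -3.26 to 7.78). Read in the other direction, 84.4% of divergent regions with a CTRL rabbit anti-V5 peak had a Sp1 WT peak, and 81.7% of those with a Sp1 DBD peak. The rank of Sp1 WT peaks, given above, was also higher at divergent promoters. Its part in the larger share with an anti-V5 peak was not tested.

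The highest ranked Sp1 WT peaks at divergent promoters served genes of varied functions. The highest was at SRGAP2B-FAM72D (starts 446 bp apart), with −log10 p of 105 and 132 in the replicates, but all of its 31-base words occur elsewhere in hg38, so its reads cannot be placed with certainty. SF3B6, a subunit of the splicing factor SF3b, shared its region with FAM228B, and the lower replicate value was 96.8, with peaks in all 11 Sp1-type lists. A single peak with values of 91.3 and 125 covered the overlapping pairs ENSG00000291316-KIFC2 and TMEM276-KIFC2. KIFC2 is a kinesin, and both regions had peaks in 8 of the 11 lists, all but Sp1 DBD and the rabbit anti-V5 lists of CTRL and Sp1 IDR-LacI. At FHIP1B-CNGA4 the values were 88.1 and 131 and at PMEL-RAB5B 83.3 and 104. PMEL is a melanosome matrix protein, RAB5B a small GTPase of early endosomes, and both regions were in all 11 lists.

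The same breadth was seen further down. ALDH6A1, a mitochondrial dehydrogenase, and LIN52, a subunit of the DREAM complex of cell cycle genes, had values of 81.5 and 99.8. TMEM53-ARMH1 had 80.7 and 111. POMT2, a protein O-mannosyltransferase, and GSTZ1, an enzyme of tyrosine breakdown, had 79.2 and 126 and were in 13 lists, both lists of CTCF DBD constructs included. CASP9, the initiator caspase of the mitochondrial death pathway, and DNAJC16 had 77.3 and 111, but the summit lay -1846.5 bp from the midpoint, outside the region, and 7 lists had a peak there. The summits of these 10 regions lay between the starts at SRGAP2B-FAM72D, both KIFC2 pairs, PMEL-RAB5B and ALDH6A1-LIN52, and on the side of 1 gene at the others.

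Well-known head-to-head pairs ranged from peaks in 10 lists to none. Of 19 such pairs looked up by name, 8 were members by their gene records. The other 11 were not, because the records overlapped, as for HSPD1-HSPE1, COL4A1-COL4A2 and SURF1-SURF2, or lay too far apart, as for MRPL55-GUK1. PPAT and PAICS, enzymes of purine synthesis whose starts lay 126 bp apart, had no Sp1 WT anti-FLAG peak. Sp1 DBD had replicate values of 32.9 and 45.4 there, EWS IDR-Sp1 DBD 21.9 and 32.1, CTRL rabbit anti-V5 50.4 and 85.0, and CTRL mouse anti-V5 54.0 and 107. The region was thus in every Sp1-type list but the longest, and the nearest Sp1 WT peak was 93906 bp away.

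NPAT, a coactivator of histone genes, and ATM, the kinase that signals DNA double-strand breaks, had a Sp1 WT peak with values of 35.8 and 55.8 and a summit 29.0 bp to the minus side of the midpoint. Sp1 DBD had 18.7 and 25.9, EWS IDR-Sp1 DBD 20.9 and 25.3, and CTRL mouse anti-V5 15.6 and 32.5, all with summits between the starts. The region held 3 GC boxes. SARS2, the mitochondrial seryl-tRNA synthetase, and MRPS12, a protein of the mitochondrial ribosome, had Sp1 WT values of 15.8 and 38.7 and CTRL rabbit anti-V5 values of 14.7 and 22.1. The stretch shown above held 4 CCAAT letters and 1 GC box, and the region was also in the CTCF DBD list (8.72 and 15.2).

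APEX1, the main endonuclease of base excision repair, shared its region with OSGEP, a tRNA modifying enzyme. Sp1 WT had values of 14.9 and 19.4 there and CTRL rabbit anti-V5 13.7 and 20.2, in a region of 0 GC boxes. SIRT3, a mitochondrial deacetylase, and PSMD13, a proteasome subunit, had only a Sp1 DBD peak (9.83 and 13.3). PRKDC-MCM4, IMMP1L-ELP4 and TMEM258-FEN1 had no peak in any list, although they hold genes of DNA repair and replication such as the DNA-dependent kinase PRKDC, the helicase subunit MCM4 and the flap endonuclease FEN1. IMMP1L-ELP4 and TMEM258-FEN1 held 0 GC boxes and PRKDC-MCM4 held 1.

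**Figure D5:**
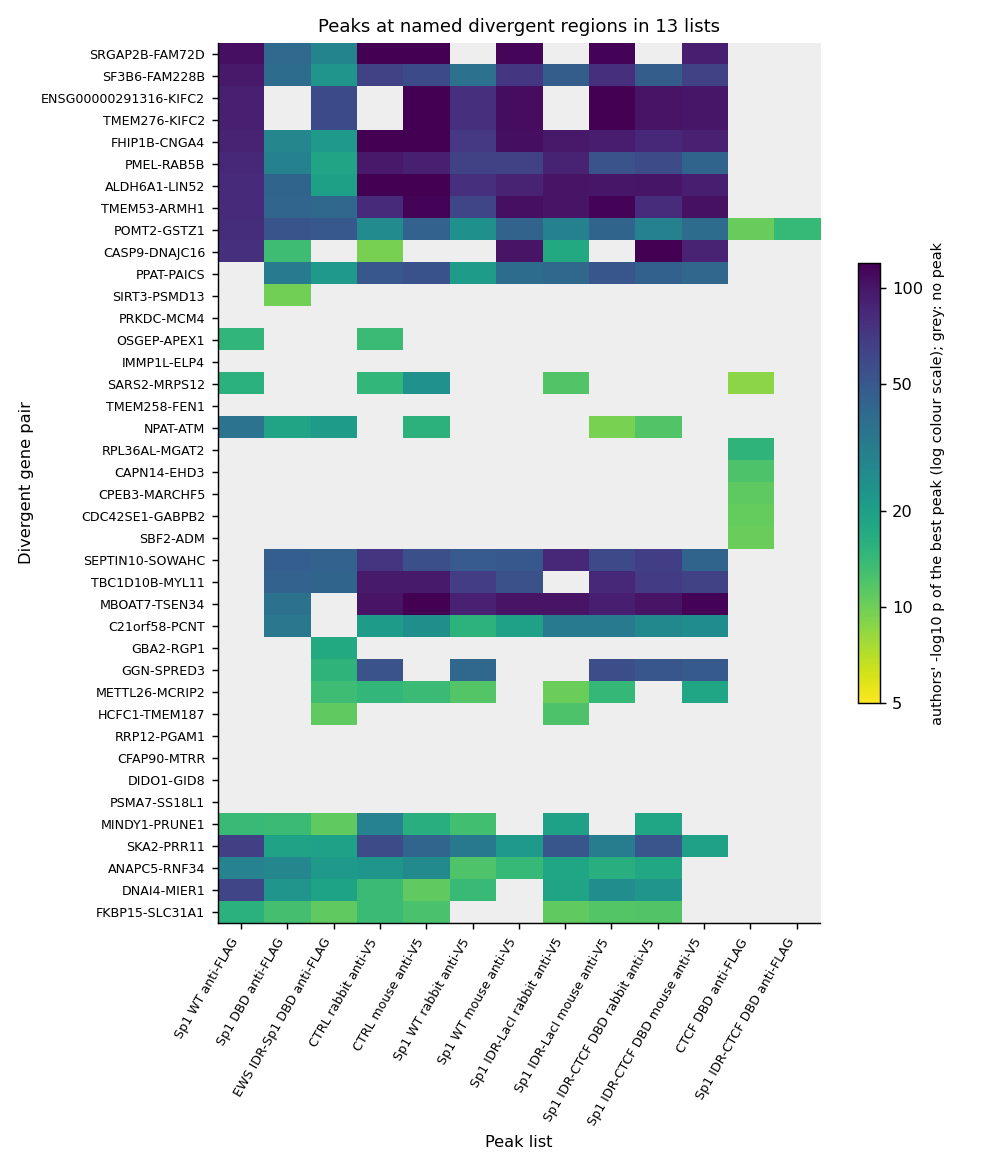
−log10 p of the peak (the smaller replicate value, log colour scale from 5 to 120) at named pairs, in rows, for the lists in columns; grey means no peak, and shades of different lists are not a common scale of binding. PPAT-PAICS is filled in every Sp1-type list but Sp1 WT anti-FLAG, and PRKDC-MCM4, IMMP1L-ELP4 and TMEM258-FEN1 are grey throughout.

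Grouped by gene symbol, the counts were small, and they are given as a description beside the 37.1% of all divergent regions. For subunits of RNA polymerases (POLR) 6 of 9 regions had a Sp1 WT peak, against 22.2% of their single promoters. PPP1R13L-POLR1G had the highest −log10 p (68.2), followed by CLCN2-POLR2H (31.4) and ZBTB4-POLR2A (28.8), the last of which holds the gene of the largest subunit of RNA polymerase II. For DNA replication and repair genes it was 7 of 18, with VPS35-ORC6 at 62.4 and in all 11 Sp1-type lists, XRCC3-ZFYVE21 at 35.0 and LIPT2-POLD3 at 34.9. ORC6 belongs to the origin recognition complex, XRCC3 to homologous recombination and POLD3 to DNA polymerase delta. Symbols starting with EIF, mostly translation initiation factors, had 4 of 8, with EIF2B4-SNX17 at 17.0. Cytosolic ribosomal proteins had 4 of 11 against 16.2% of single promoters, with RPS25-TRAPPC4 at 23.5 and RPS16-SUPT5H at 15.8.

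Mitochondrial ribosomal proteins had 6 of 18 (33.3%) and the same share, 33.3%, at single promoters, with TCP1-MRPL18 at 44.1, PSMA2-MRPL32 at 22.8 and FAU-MRPL49 at 16.8. The 6 regions rested on 5 peaks, since PSMA2-MRPL32 and ENSG00000256646-MRPL32 shared theirs. Complex I genes had 3 of 16 (18.8%) against 21.7%, and 2 of these 3 share NDUFA11 and 1 peak of 66.7. Proteasome genes had 2 of 6, aminoacyl-tRNA synthetases 2 of 3 (LYRM4-FARS2 and SARS2-MRPS12) and collagen IV genes 0 of 2. Zinc finger (ZNF) genes, most of them DNA-binding repressors, had 11 of 30 (36.7%, resting on 10 peaks) against 18.1% of single promoters. ZNF558-MBD3L1 (65.9) and MBD3L3-ZNF557 (50.7), both on a zinc finger and MBD3L pair, were in all 11 Sp1-type lists. TMEM genes, named only for a membrane-spanning protein, had 12 of 29 (41.4%) against 19.6%.

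Histone genes stood at the low end of the values, with 1 of 15 regions (6.67%) against 10.1% of their single promoters. Of these, 12 were pairs of an H2A and an H2B gene, whose products form the H2A-H2B dimer of the nucleosome, with starts 170 to 251 bp apart (median 234). H2BC11-H2AC11 alone had a Sp1 WT peak (10.6), and it was in no other list. The stretch between the starts of this pair (chr6:27132796-27133042) and of H2BC8-H2AC8 (chr6:26216689-26216920), which had no peak, are shown as an occupied and an unoccupied pair of similar spacing, with capitals for CCAAT or ATTGG and TATAAA or TTTATA. They read 5′ to 3′ on the plus strand of hg38.
H2BC11-H2AC11: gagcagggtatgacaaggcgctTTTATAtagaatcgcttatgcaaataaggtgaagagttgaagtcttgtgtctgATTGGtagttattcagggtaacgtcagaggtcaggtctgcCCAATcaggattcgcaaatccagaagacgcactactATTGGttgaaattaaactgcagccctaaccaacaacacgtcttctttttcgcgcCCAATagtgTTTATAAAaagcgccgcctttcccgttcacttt
H2BC8-H2AC8: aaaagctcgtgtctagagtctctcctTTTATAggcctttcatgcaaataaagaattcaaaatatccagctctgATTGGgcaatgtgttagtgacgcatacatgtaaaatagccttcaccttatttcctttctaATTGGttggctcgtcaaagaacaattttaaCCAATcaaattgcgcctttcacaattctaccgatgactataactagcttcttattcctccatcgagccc
They held 4 and 3 CCAAT letters and 43.7% and 38.4% G and C, and neither had a GC box between the starts. CCAAT was in all 12 regions and TATAAA in 9, against 623 and 180 of 887 divergent regions, and 2 of the 12 held no GC box. At a distance over 200 and up to 300 bp, where most of them lie, 50.0% of divergent regions had a Sp1 WT peak.

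Regions with a Sp1 DBD peak and no Sp1 WT peak numbered 41. None of the 41 had a Sp1 WT peak within 1000 bp, and in 32 the nearest was more than 10000 bp away. An anti-V5 peak was present in 19, and 6 were in all 8 anti-V5 lists. The highest ranked were SEPTIN10-SOWAHC (46.5 and 49.2), TBC1D10B-MYL11 (44.4 and 70.9), MBOAT7-TSEN34 (36.8 and 45.1, with the summit 1124.0 bp from the midpoint), C21orf58-PCNT (33.6 and 33.7) and PPAT-PAICS. SEPTIN10 encodes a septin, TSEN34 a subunit of the tRNA splicing endonuclease and PCNT the centrosome protein pericentrin. The 5 were in 9 or 10 of the 11 Sp1-type lists and held 6 to 13 GC boxes. EWS IDR-Sp1 DBD had a peak at 4 regions without Sp1 WT or Sp1 DBD (0.451%, against 0.652% of single promoters). They were GBA2-RGP1 (19.9 and 17.5), GGN-SPRED3 (15.2 and 30.0), METTL26-MCRIP2 (13.4 and 16.5) and HCFC1-TMEM187 (12.2 and 10.9). GBA2-RGP1 was in no other list.

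A peak of the CTCF DBD or of Sp1 IDR-CTCF DBD with anti-FLAG lay at 29 divergent regions, 9 of which had both. In the Sp1 IDR-CTCF DBD list, all 11 occupied regions also had a Sp1 WT peak (100%, 74.1 to 100), against 27 of 55 occupied single promoters (49.1%, 36.4 to 61.9). For the CTCF DBD alone it was 20 of 27 (74.1%, 55.3 to 86.8) against 81 of 184 (44%, 37.0 to 51.2). The 11 and 27 divergent regions rested on 8 and 23 peaks, so their intervals are too narrow. The lists held 166 and 649 peaks and were not cut to equal length, so the effect of the attached Sp1 IDR was not tested. The study, over all its peaks, could not distinguish the chimera from the CTCF DBD in overlap with Sp1. The 7 regions without a Sp1 WT peak were thus all of the CTCF DBD. The highest ranked were RPL36AL-MGAT2 (15.2 and 20.3), CAPN14-EHD3 (12.2 and 31.6), CPEB3-MARCHF5 (11.0 and 16.3), CDC42SE1-GABPB2 (10.6 and 12.7) and SBF2-ADM (10.2 and 17.9), and none of these 5 had a peak in another list. They hold genes of unlike functions, such as MGAT2, a glycosyltransferase of the Golgi, EHD3, a protein of endosome recycling, and ADM, the peptide hormone adrenomedullin.

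No list had a peak at 490 of the 887 divergent regions (55.2%). Those with many GC boxes included RRP12-PGAM1, with 18, and CFAP90-MTRR, DIDO1-GID8 and PSMA7-SS18L1, with 16 each. PGAM1 is an enzyme of glycolysis and PSMA7 a subunit of the proteasome. At the other end, 60 regions had a peak in Sp1 WT, Sp1 DBD, EWS IDR-Sp1 DBD and both CTRL anti-V5 lists, and those with the fewest GC boxes held 2 or 3. SKA2, a protein of the spindle and kinetochore, and PRR11 shared a region of 2 GC boxes with Sp1 WT values of 65.5 and 86.5 and peaks in all 11 Sp1-type lists. MINDY1-PRUNE1 also held 2 (13.9 and 24.2). ANAPC5, a subunit of the anaphase-promoting complex, and RNF34 shared a region of 3 GC boxes with Sp1 WT values of 29.2 and 44.7 and a summit 4.5 bp from the midpoint. DNAI4-MIER1 (61.8 and 64.3) and FKBP15-SLC31A1 (15.8 and 26.0) held 3 as well. The number of GC boxes thus overlapped widely between occupied and unoccupied divergent promoters.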

How the data were processed

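CUT&RUN peak lists of 19 combinations of line and antibody (38 samples, 2 replicates each) were used, grouped by the sample labels. By the study's methods and the submitters' processing notes, hg38 alignments came from Bowtie2 2.3.5.1 after trimming (Cutadapt 2.6), and duplicates were taken out (SAMtools 1.9). The authors' peaks were those of MACS3 (given as version 2.2.7.1), called per replicate with merged controls as background. A peak stayed in a list where its irreproducible discovery rate (IDR) over both replicates did not exceed 0.1. The −log10 p-values deposited by the authors are those of the merged peak, equal to the smaller replicate value, and of each replicate. Peaks were ranked by them within a list only. Values of several lists are printed side by side at named regions and in 1 plot as a description, with no comparison of level between lists, and the order of the labelled replicates is unknown. The deposited score is the −log10 of the global IDR (lowest 0.999), used for stricter thresholds. A further 6 tables hold log10 likelihood ratios of the authors' own comparisons of Sp1 WT with a construct and were not used. All 27085 peaks lay on sequences of hg38 and inside their ends.

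Regions were built from GENCODE 44 gene records on chromosomes 1 to 22, X and Y. A region was occupied where at least 1 bp of a peak lay in it, and the overlaps equalled those of bedtools 2.31.1 in 19 of 19 lists. Shares have 95% Wilson and differences 95% Newcombe intervals, which cover counting error over regions that are not independent where they overlap. The code was tested on simulated regions and peaks. The members, gene groups and motifs were chosen with earlier results of these data known. Regions were named by rule: the 10 highest Sp1 WT peaks, 19 textbook pairs, up to 5 regions with a peak in a list and none in Sp1 WT, the 5 unoccupied regions with the most GC boxes, the 5 regions in 5 lists with the fewest, and gene groups by symbol. Some of what the rule names is left out here. The rule for regions with a control-type peak named 0. Alternatives were stricter IDR, other overlaps, distances, start definitions and windows, equal list lengths, and weighting by GC boxes or CpG. Code ran in Python 3.11.15 (pysam 0.24.0, NumPy 2.4.6), with plots from matplotlib 3.10.9.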

Additional observations from a re-analysis of the deposited data

How the results depend on the processing

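Divergent regions had the larger share under all alternatives tried: the interval of the difference lay above 0 in 258 of 258 comparisons over 13 lists. Some alternatives could change little. Without peaks in control lists the Sp1 WT counts stayed at 329 and 2697, and without chromosome Y all 887 divergent regions remained. The lists share sites, and the intervals of the weighted differences are too narrow, as said above. The 258 comparisons are therefore not independent of each other. The separate classes of GC boxes and CpG ratio were not among them. Sp1 WT had the larger divergent share in every class, but not every list did. Below a CpG ratio of 0.4, CTRL rabbit and mouse anti-V5 had 0 of 59 divergent starts, against 0.236% and 0.326% of single starts. The remaining anti-V5 lists and both lists of CTCF DBD constructs had 0 of 59 as well. With 10 or more GC boxes CTCF DBD and Sp1 IDR-CTCF DBD anti-FLAG had 0 of 112, against 0.754% and 0.216%. The latter had 0 of 107 from a CpG ratio of 0.4 to 0.6, against 0.156%. The intervals of these differences included 0. So did those of EWS IDR-Sp1 DBD with 0 GC boxes (-0.179 to 4.03) and from a CpG ratio of 0.8 (-0.305 to 5.14), and some others. Values are given in the order Sp1 WT, Sp1 DBD, EWS IDR-Sp1 DBD, CTRL rabbit anti-V5 and CTRL mouse anti-V5. With IDR of at most 0.05 the share of divergent regions was 33.3%, 20.7% and 13.3% in the first 3. With IDR of at most 0.01 it was 24.0%, 11.7%, 5.98%, 13.1% and 14.3%, and the difference to single promoters 15.4, 6.92, 3.26, 9.28 and 10.2 points. With starts at most 300 bp apart the shares were 33.2%, 21.5%, 13%, 17.6% and 16% and the differences 16.9, 10.3, 5.50, 11.1 and 9.80 points. With each list reduced to its 1332 highest ranked peaks the shares were 13.8%, 11.6%, 9.70%, 15.6% and 15.3% and the differences 9.37, 7.01, 5.50, 11.2 and 10.8 points, so that the order of the lists changed with their length, as did the ratios given above. Weighting single starts by GC boxes gave differences of 16.1, 10.5 and 6.72 points in the first 3. Weighting by CpG gave 12.7, 8.11, 5.01, 10.4 and 9.30 points. Weighting by both, chosen after seeing the data, gave 14, 9.71, 6.24, 11.1 and 10.1 points. The other 47 of 65 shares and 72 of 100 differences of these 5 lists stayed within the 95% interval of the reported value, under summits in place of overlap, canonical starts, merged regions, no readthrough genes, no chromosome Y, no control or repeated regions, and other windows. The alternatives that could change little are counted among them. No paired analysis was possible because each list was made from both replicates, and for the same reason no replicate could be left out. The read depth of the lists is unknown here, so an unlisted region is not shown to be free of Sp1.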

Other observations

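Endogenous Sp1 gave a peak in all 8 anti-V5 lists at 75 divergent regions, and 9 of these (12%) had no Sp1 WT anti-FLAG peak, against 71 of 413 single promoters (17.2%). Besides PPAT-PAICS, the 9 were C21orf58-PCNT, HAUS8-MYO9B, MBOAT7-TSEN34, P3H1-C1orf50, P3H1-ENSG00000283580, SEPTIN10-SOWAHC, TMEM256-NLGN2 and TMEM256-PLSCR3-NLGN2, chosen after their values were seen. HAUS8 is a subunit of augmin, which nucleates spindle microtubules, P3H1 a prolyl hydroxylase of collagen and NLGN2 a neuronal adhesion protein. The nearest Sp1 WT peak was 8392 to 138811 bp away.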
